A study of Mus musculus with 840 samples.

Results

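Single-cell read counts of the mouse mammary epithelium were examined for 10 genes of chemokine signalling and innate defence. They were the chemokines Cxcl14, Cxcl1, Cxcl2, Cxcl15 and Ccl20, the bacterial sensors Cd14 and Lbp, the secreted defence proteins Lcn2 and Ptx3, and the adhesion molecule Icam1. The genes were chosen by symbol among 39154 Ensembl identifiers, with earlier results of these data known. Each symbol matched 1 identifier that was listed in all 3 sequencing batches.

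Chemokines are small secreted proteins that guide leukocytes through G protein-coupled receptors. Cxcl1 and Cxcl2 are ligands of Cxcr2 on neutrophils, Ccl20 is the ligand of Ccr6, and Cxcl14 is made by many resting epithelia. Lbp hands bacterial lipopolysaccharide to Cd14, which passes it to the receptor Tlr4, and the transcription factor NF-kB then acts on genes such as Cxcl1, Cxcl2, Icam1 and Lcn2. In the mammary gland such genes are best known from mastitis and from involution after weaning, and luminal progenitors are known to carry Cd14.

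The mice held a Cre-dependent allele (R26-N1ICD-ires-nGFP) that expresses the active intracellular part of Notch1 together with nuclear GFP. Tamoxifen at postnatal day 21 switched it on through SMACreERT2 or K5CreERT2, which are driven by basal cell promoters. All cells, GFPneg ones included, came from tamoxifen-treated mice of these genotypes, so GFPneg cells are neighbours of mutant cells and not cells of an uninduced mouse. Cells were sorted 1, 3, 4 or 6 weeks later (the chase) as basal (CD49f high, EpCAM low), intermediate (medium for both) or luminal (CD49f low, EpCAM high), after removal of cells with blood or endothelial surface markers. The GFPneg luminal cells of batches 1 and 2 are annotated as negative for the estrogen receptor, and those of batch 3 carry no such annotation. Levels of hormone receptor-positive markers are given below with the comparison of luminal GFPpos and GFPneg cells.

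The thresholds stated in the study's methods were applied here to read counts, and 68.7% of the 744 cells were kept. Removal of cells with more than 1 read of the salivary gland gene Dcpp1 took that share from 92.5% to 68.7%. The scale on which the study applied these thresholds is not given in the sources used here, so the cells kept need not be the study's set. The cells kept here were 100 basal and 120 luminal GFPpos cells and 17 basal, 12 intermediate and 39 luminal GFPneg cells, and the intermediate GFPpos cells, which were 60, 63 and 61 on plates E, G and L of batch 3 and 4, 3, 13 and 19 on the plates of batches 1 and 2. Their depth was 103081 to 3363298 reads with a median of 652124, and batch 3 was deeper (median 1499630) than batches 1 and 2 (402767 and 397250). Cells of a plate come from the same 1 or 2 mice, so cells are not replicates. Reads were summed over the cells of each gate and GFP class within a unit, meaning a Cre line at a chase time, and given as CPM, counts scaled to the same total in every sum. The 5 units were K5Cre at 3 weeks and SMACre at 1, 3, 4 and 6 weeks, and they gave 21 sums of 4 cells or more. The 6-week unit held luminal cells only. Plate L of the K5Cre unit is named for 6 weeks in the cell labels but annotated as 3 weeks, and calls that change without it are given as such.

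The gates carried their markers. In luminal against basal GFPpos cells, all 10 luminal hormone receptor-negative (HRneg) markers were higher and all 10 basal markers lower in every unit. Krt14 was at 3679 CPM in basal, 3512 CPM in intermediate and 182.6 CPM in luminal GFPpos cells, and Krt8 at 254.8, 465.9 and 2401 CPM. For some SMACre plates a supplementary count of sorted cells has the intermediate and luminal GFPpos numbers the other way round from the labels, and gates here follow the labels and the deposited annotation. Under these, the summed basal markers of SMACre intermediate GFPpos cells were 2998, 5639 and 12228 CPM at 1, 3 and 4 weeks, against 460, 134.8 and 1346 CPM in luminal GFPpos cells. Summed leukocyte markers (10 genes) reached 1000 CPM in the intermediate GFPneg cells and 0 to 93.6 CPM in the other sums. In luminal GFPpos cells the leukocyte markers Ptprc, Tyrobp, Adgre1 and Itgam were at 0. Others of the 10 had reads in every luminal GFPpos sum, with 4.78 to 22.8 CPM for the list.

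The 3 chemokines Cxcl15, Cxcl1 and Cxcl2 lie in this order on chromosome 5 (GRCm38, plus strand), at 90794534 to 90803067, 90891241 to 90893115 and 90903871 to 90905938. The gaps between them are 88173 and 10755 bases. Cxcl14 is on chromosome 13 (56288643 to 56296551, minus strand), Ccl20 on chromosome 1 (83116766 to 83119167), Lcn2 on chromosome 2 (32384633 to 32388252, minus strand), Lbp also on chromosome 2 (158306493 to 158332852), Ptx3 on chromosome 3 (66219910 to 66225805) and Icam1 on chromosome 9 (21015985 to 21028817). All are protein-coding. Chemokines of this cluster are related in sequence, and how reads that match several of them were assigned is not given in the sources used here.

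The stretches just before the starts of Cxcl1, Cxcl2, Ccl20 and Cxcl14 are shown. The first 3 hold a match to the NF-kB consensus. Cxcl14, the member whose level differed most clearly between gates, holds none. Cxcl15, Icam1, Lcn2 and Ptx3, which are not shown, hold none either. A link between these matches and the levels was not tested. The stretches come from RefSeq (GRCm38.p6), which gave a promoter for 8 of the 10 genes. Each line is written 5′ to 3′ on the strand of its gene and stops before the first annotated exon. Capitals mark matches to the NF-kB consensus or, in the Ccl20 line nearest to the start, to TGGGAA on the opposite strand, the core bound by the Notch effector RBPJ.
Cxcl1, chr5:90890995-90891240, plus strand: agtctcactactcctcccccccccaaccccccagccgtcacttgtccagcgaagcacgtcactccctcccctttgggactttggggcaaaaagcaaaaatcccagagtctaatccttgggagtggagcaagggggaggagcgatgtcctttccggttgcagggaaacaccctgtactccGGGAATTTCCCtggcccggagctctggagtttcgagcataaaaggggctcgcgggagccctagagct
Cxcl2, chr5:90903649-90903870, plus strand: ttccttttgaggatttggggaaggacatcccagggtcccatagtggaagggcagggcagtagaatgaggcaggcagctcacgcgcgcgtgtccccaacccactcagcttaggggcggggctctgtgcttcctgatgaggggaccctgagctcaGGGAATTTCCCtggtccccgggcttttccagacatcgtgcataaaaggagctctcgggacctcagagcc
Ccl20, chr1:83116516-83116765, plus strand: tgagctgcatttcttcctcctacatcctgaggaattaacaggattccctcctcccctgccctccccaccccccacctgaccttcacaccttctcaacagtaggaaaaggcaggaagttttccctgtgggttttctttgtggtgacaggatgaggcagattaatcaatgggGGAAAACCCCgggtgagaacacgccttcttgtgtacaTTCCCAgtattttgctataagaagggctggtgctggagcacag
Cxcl14, chr13:56296552-56296801, minus strand: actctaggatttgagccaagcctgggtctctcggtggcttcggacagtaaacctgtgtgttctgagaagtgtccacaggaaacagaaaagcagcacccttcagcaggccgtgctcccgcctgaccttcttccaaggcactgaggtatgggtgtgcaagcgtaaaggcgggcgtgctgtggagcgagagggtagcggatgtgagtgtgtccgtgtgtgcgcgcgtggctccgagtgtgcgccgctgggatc

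Cxcl1 and Cxcl2 share the same 11 capital letters, 71 and 97 bases before their RefSeq starts, which read as a match on either strand. In the 250 bases before the RefSeq start, a match to the NF-kB consensus was found in 3 of the 8 members, against 3.90% of 32851 mouse promoters. The 8 include Lcn2, whose stretch lies inside the gene. The members include genes named above as acted on by NF-kB, and the matches of Cxcl1 and Cxcl2 are the same shared letters. The share is therefore not a measure of enrichment. TGGGAA on either strand was found in 1 of 8 members (Ccl20, 43 bases before the start) against 21.6% of promoters, and the AP-1 motif TGANTCA in 0 of 8 against 6.75%. These are letter matches and not binding data. The RBPJ match of Ccl20 does not overlap its NF-kB match.

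Cxcl14 was high in basal cells, lower in intermediate cells and near 0 in most luminal cells. In basal GFPpos cells it stood at 478 CPM in the K5Cre unit and at 1059, 1289 and 1571 CPM in the SMACre units of 1, 3 and 4 weeks. In intermediate GFPpos cells it was lower in each of these units, at 340, 630, 386 and 1052 CPM. In luminal GFPpos cells it was at 32.2, 12.96, 66.7 and 72.4 CPM, and at 1.57 CPM in the 6-week unit. The basal and luminal units did not overlap. GFPneg cells ran in the same order, with 608 and 1013 CPM in the basal sums of the K5Cre and SMACre 3-week units, 264.5 CPM in the intermediate sum, and 0 to 3.65 CPM in the luminal sums.

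Luminal GFPpos cells had less Cxcl14 than basal GFPpos cells in 4 of 4 units (46.1 ± 28.3 against 1099 ± 464 CPM, SD, n = 4; log2 fold change -4.81, SE 0.47, adjusted p = 0.0116, edgeR's quasi-likelihood test with the unit as block and Benjamini-Hochberg adjustment over 13571 genes). It was the only 1 of the 9 members tested that passed in this comparison, in which 1.13% of all genes passed, 0.494% higher and 0.641% lower in luminal cells. The call was lost without plate L (log2 fold change -6.06, adjusted p = 0.0945) and with plates in place of units (log2 fold change -5.41, adjusted p = 0.0930). Without each unit in turn the adjusted p was 0.0163 to 0.0393.

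The Cxcl14 reads of luminal GFPpos cells came from few cells. After thinning each cell to 100000 reads, the gene had a read in 89 of 100 basal cells (89%), in 74.4% of intermediate cells and in 13 of 120 luminal GFPpos cells (10.8%, exact 95% interval 5.90 to 17.8%). In the luminal GFPpos sums a single cell gave 100% of the Cxcl14 reads of the K5Cre unit, 99.2% in the SMACre 3-week unit, 78.9% at 1 week and 67.6% at 4 weeks. The highest luminal GFPpos cell held 2731 CPM, within the basal range. The intervals here and below cover counting error only, since Smart-seq2 reads carry no molecular identifiers and cells share mice.

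Cd14 (chromosome 18, 36725067 to 36726798, minus strand), the lipopolysaccharide co-receptor, ran the other way. Basal GFPpos cells had 1.08 CPM in the K5Cre unit and 7.31, 3.47 and 6.69 CPM in the SMACre units of 1, 3 and 4 weeks. Luminal GFPpos cells of the same units had 554, 65.9, 102.7 and 445 CPM, and those of the 6-week unit 408 CPM. Every luminal value was above every basal one. Groups without overlap, in either direction, were seen for 4 of the 9 members tested (Cxcl14, Cd14, Cxcl1 and Cxcl15) and for 10.1% of all genes tested. The difference of 5.50 on the log2 scale (SE 0.98, n = 4) missed the threshold with edgeR (adjusted p = 0.0571) and passed with DESeq2 (adjusted p = 3.45e-11) and with edgeR when the K5Cre unit was left out (adjusted p = 0.0468). Without each unit in turn the edgeR adjusted p ran from that value to 0.168. In the intermediate GFPpos cells Cd14 was at 42.7 CPM in K5Cre and at 0, 9.79 and 0.271 CPM in SMACre, and 1 cell gave 74.3% of the K5Cre reads.

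A read of Cd14 was found in 65.8% of luminal GFPpos cells (56.6 to 74.2%), in 9.87% of intermediate (6.29 to 14.6%) and in 7% of basal GFPpos cells (2.86 to 13.9%). The share was 64.1% in luminal GFPneg cells (47.2 to 78.8%). Cd14 is also a monocyte gene. Summed leukocyte markers were 4.78 to 22.8 CPM in the luminal GFPpos sums and 0 to 54.8 CPM in the luminal GFPneg sums, the highest in the SMACre 3-week sum, which had the lowest luminal GFPneg Cd14 (214.6 CPM). On plate L intermediate GFPneg cells had 149.2 CPM of Cd14 beside 1980 CPM of leukocyte markers, and on plate G 0 CPM of Cd14 beside 8.69 CPM of leukocyte markers. The part of leukocyte RNA in these values was not tested.

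Lbp, which carries lipopolysaccharide to Cd14, was scarce. It had reads in 7 basal, 13 intermediate and 10 luminal GFPpos cells before thinning and in at most 7.69% of the cells of a class after thinning. Its levels ranged from 0 to 64.2 CPM in the sums except for 216.8 CPM in the intermediate GFPpos sum of the SMACre 1-week unit, where all reads came from 1 of 4 cells. None of its differences passed either test.

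Lcn2, which binds bacterial siderophores, was expressed in every gate. Basal GFPpos cells had 751, 1094, 1069 and 1410 CPM (K5Cre at 3 weeks, then SMACre at 1, 3 and 4 weeks), intermediate GFPpos cells 570, 544, 542 and 1030 CPM, and luminal GFPpos cells 1520, 497, 1191 and 1410 CPM. Luminal cells of the 6-week unit had 1945 CPM. The basal and luminal ranges overlapped (log2 fold change -0.10, SE 0.36, adjusted p = 0.958). Intermediate cells had less than basal cells in 4 of 4 units, but the change of -0.65 (log2, SE 0.27) did not pass (edgeR adjusted p = 1.00). A read was found in 90% of basal, 96.4% of intermediate and 89.2% of luminal GFPpos cells. Scaled by the length of the merged exons and to the same total in each class, with the reads of all units pooled, Lcn2 held the highest level of the 10 members in luminal GFPpos (2300 length-scaled reads), luminal GFPneg (2734 length-scaled reads) and intermediate GFPpos cells (1024 length-scaled reads), and Cxcl14 in both basal classes (1933 length-scaled reads in GFPneg and 2187 length-scaled reads in GFPpos cells). Unit by unit the order was not always the same. Lcn2 led in 5 of 5 units of luminal GFPpos cells, but in 3 of 5 of luminal GFPneg cells, where Cd14 led at 1 and 4 weeks, and in 1 of 4 of intermediate GFPpos cells, where Cxcl14 led at 1 and 4 weeks and Cxcl1 in SMACre at 3 weeks. Cxcl14 led in the 3 SMACre units of basal GFPpos cells and Lcn2 in the K5Cre unit.

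Ptx3, a soluble pattern recognition protein, was at 676, 1098 and 353 CPM in basal GFPpos cells of SMACre mice at 1, 3 and 4 weeks, and at 58.3 CPM in K5Cre. Intermediate GFPpos cells had 95.8, 161.8 and 504.6 CPM in SMACre and 147.5 CPM in K5Cre, so that basal cells were above intermediate cells at 1 and 3 weeks but not at 4 weeks or in K5Cre. The luminal GFPpos values were 17.6 CPM in K5Cre and 202.6, 248.7, 231.5 and 101.04 CPM in SMACre at 1, 3, 4 and 6 weeks. Each unit had less in luminal than in basal cells (log2 fold change -1.67, SE 0.32, adjusted p = 0.0670), but the ranges overlapped, with the K5Cre unit low in both. Detection was 71% in basal, 37.7% in intermediate and 52.5% in luminal GFPpos cells.

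Icam1, the endothelial and epithelial ligand of leukocyte integrins, was shared by basal and intermediate cells. Basal GFPpos cells had 130, 519, 458 and 591 CPM, and intermediate GFPpos cells 176.1, 830, 258.4 and 613 CPM in the same order of units. Luminal GFPpos cells had 44.7, 152.8, 17.7 and 86.2 CPM, and 46.3 CPM at 6 weeks. Luminal cells were lower than basal cells in 4 of 4 units (edgeR log2 fold change -2.74 with SE 0.59, adjusted p = 0.0964), with an overlap between the K5Cre basal and the 1-week luminal sums. They were also lower than intermediate cells in 4 of 4 units without overlap (edgeR log2 fold change -2.95 with SE 0.49, adjusted p = 0.233). A read was found in 83% of basal, 55.2% of intermediate and 19.2% of luminal GFPpos cells.

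**Figure D1:**
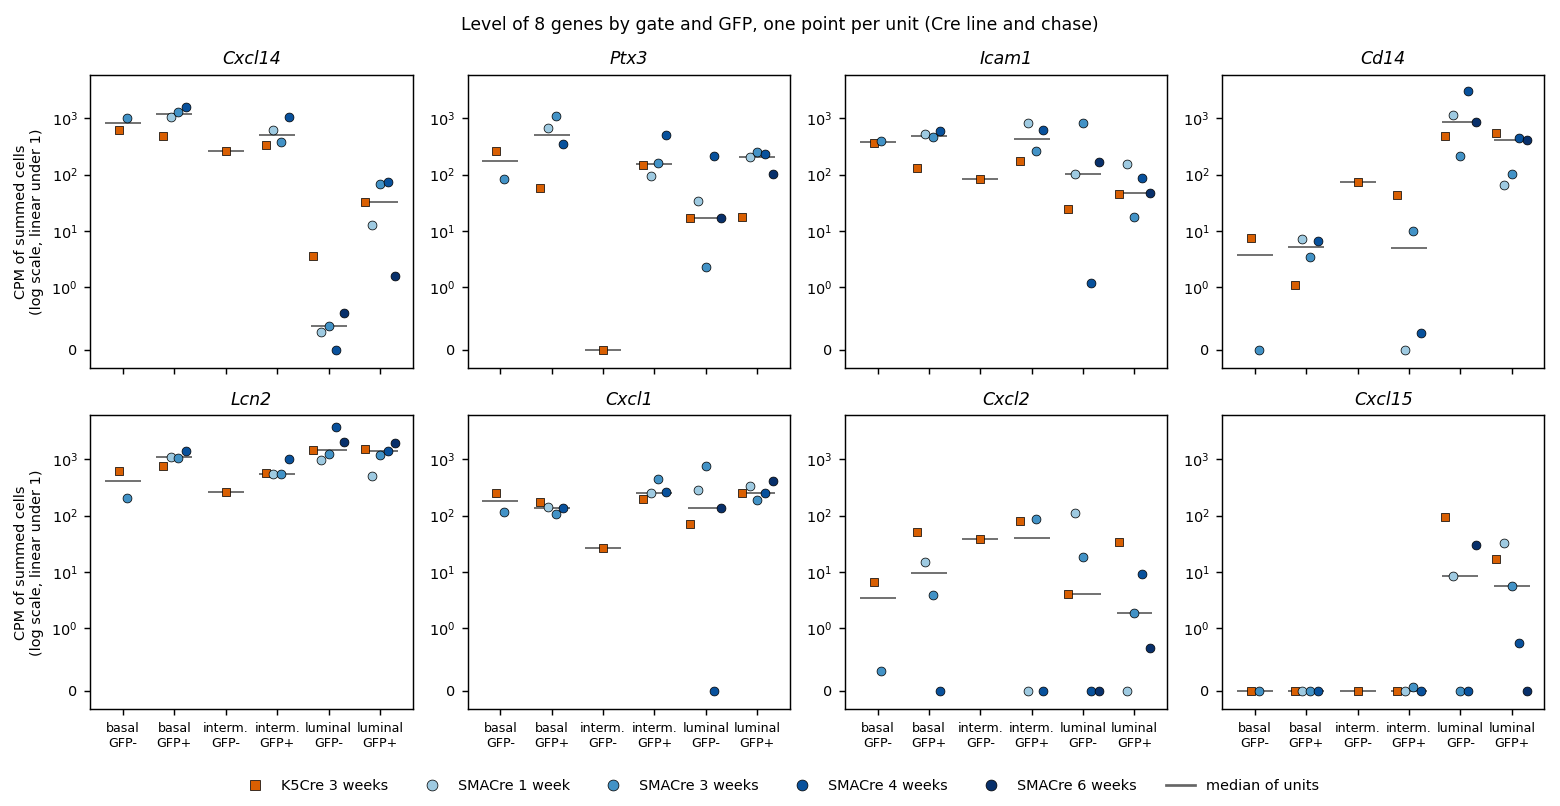
CPM (log axis, linear under 1) of 8 of the 10 genes by gate and GFP, 1 point per unit and a line at the median of units. Cxcl14 falls from basal to luminal cells, Cd14 is at 65.9 CPM or more in every luminal sum and at 75.01 CPM or less in the rest, and Lcn2 lies between 207.1 and 3739 CPM in all sums.

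The neutrophil chemokines were found in every gate. Cxcl1 was at 172.6, 140.9, 105.5 and 134.9 CPM in basal, 193.8, 252.98, 440 and 257.8 CPM in intermediate and 252.04, 336, 185.9 and 247.2 CPM in luminal GFPpos cells of the 4 units with all gates. Luminal and intermediate cells each had more than basal cells in 4 of 4 units, without overlap of the groups. Neither passed, with log2 fold changes of 0.76 (SE 0.27, adjusted p = 0.269) for luminal and 1.05 (SE 0.45, adjusted p = 1.00) for intermediate cells. Reads of Cxcl1 were found in 51%, 48.9% and 54.2% of basal, intermediate and luminal GFPpos cells.

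Cxcl2, the neighbour of Cxcl1, ranged from 0 to 87.4 CPM in the GFPpos sums and was at 0 in 4 of them. The SMACre 3-week and K5Cre intermediate cells led with 87.4 and 78.8 CPM. Most cells with Cxcl2 had Cxcl1 as well. After thinning, 10.8% of all cells had reads of both, 38.6% of Cxcl1 only and 1.57% of Cxcl2 only. None of the Cxcl2 differences passed.

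Cxcl15, known from lung and other mucosal epithelia, was confined in these cells to luminal sums but for 6 reads. Luminal GFPneg cells had 93.4 CPM in K5Cre and 8.52, 0, 0 and 30.5 CPM in SMACre at 1, 3, 4 and 6 weeks. Luminal GFPpos cells had 16.8, 32.7, 5.52, 0.762 and 0 CPM in the same order. It had no read in 100 basal GFPpos cells (exact 95% upper limit 3.62%), and 1 intermediate GFPpos cell held the 6 reads. This limit is on the share of cells with a read and not of cells that express the gene. The edgeR test did not pass (adjusted p = 0.158).

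Ccl20, a chemokine for cells with Ccr6, was seen only in intermediate GFPpos cells, in 6 cells before thinning, and 1 of them held 64.1% of its 571 reads. The 100 basal and 120 luminal GFPpos cells had no read (exact 95% upper limits 3.62% and 3.03% of cells with a read). It stayed below the filter on low counts in all 4 comparisons and was not tested.

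**Figure D2:**
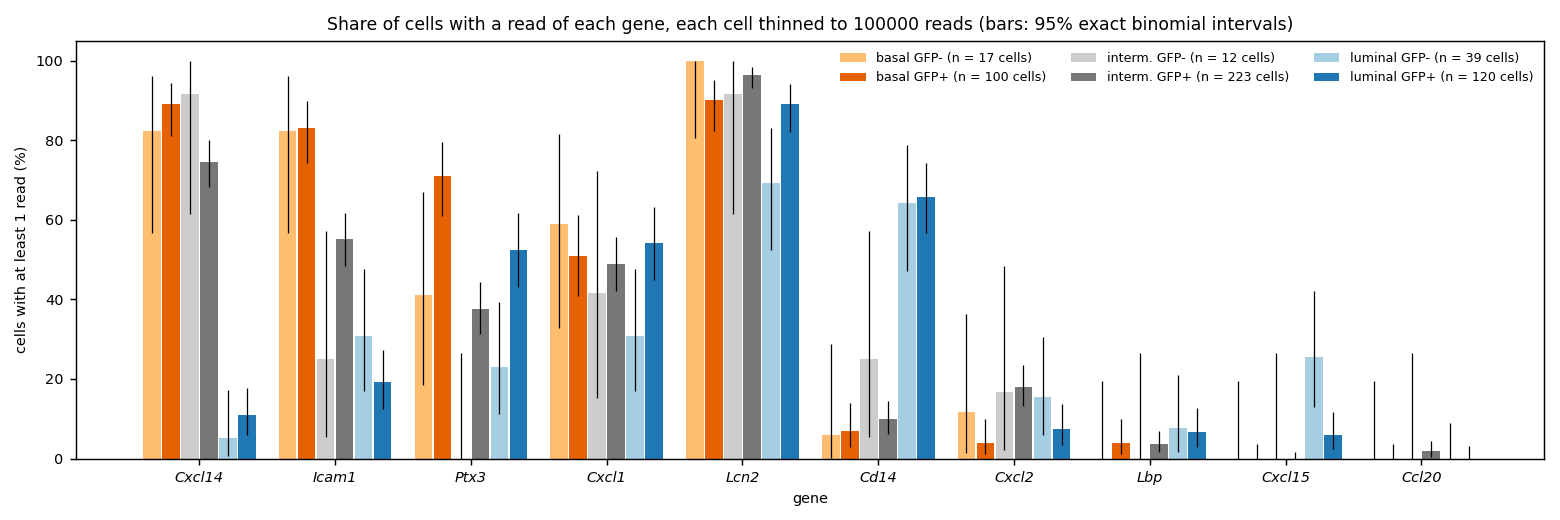
Share of cells with at least 1 read of each gene after thinning to 100000 reads per cell, by gate and GFP, with exact 95% binomial intervals. Cxcl14 and Cd14 have opposite profiles over the gates (89% and 7% of basal, 10.8% and 65.8% of luminal GFPpos cells), while Lcn2 is at 69.2% or more in every class.

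Reads of Cxcl14 and Cd14 in the same cell were counted after thinning. Of all cells, 51.9% had Cxcl14 only, 20.9% Cd14 only and 5.87% both, shares that also carry the differences of both genes between the gates. Both were found in 7% of basal and 5% of luminal GFPpos cells, where 7% and 65.8% had Cd14. Among the intermediate GFPpos cells, 68.6% had Cxcl14 only, 4.04% Cd14 only, 5.83% both and 21.5% neither. The median number of the 10 genes with a read was 4 in basal, 4 in intermediate and 3 in luminal GFPpos cells.

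Over the members as a group, 6 of the 9 tested in luminal against basal cells had the same direction in every unit, against 24.5% of all genes tested, and 6 of 9 had an unadjusted p under 0.05, against 13.1%. DESeq2 called 5 of the 9 (Cxcl14, Cxcl15, Cd14, Icam1 and Ptx3), against 12.7% of all genes. The median log2 fold change of the 9 was -0.70, beside -0.03 for all genes. This median is the value of the scarce gene Lbp (SE 2.78), which was higher in 2 units and lower in 2. It therefore gives no direction for the members as a group. Of the 5 that DESeq2 called, 2 were higher and 3 lower in luminal cells. The members were chosen with earlier results of these data known. Shares above those of all genes, here and in the comparisons below, can therefore come from the choice.

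The intermediate against basal comparison asked whether these genes differed in cells that lie between the gates. With edgeR 0 of 8 members passed and 0% of 13780 genes did, and DESeq2 also passed 0 of 8 members and 0.45% of genes. An unadjusted p under 0.05 was reached by 4 of 8 members (Cxcl14, Lcn2, Cxcl1 and Lbp), against 1.29% of genes. The direction was the same in every unit for 3 of 8 (11% of genes) and the groups did not overlap for 1, Cxcl1 (2.23% of genes). Cxcl14 was lower in 4 of 4 units (edgeR log2 fold change -0.83 with SE 0.30, adjusted p = 1.00). The 4 SMACre 1-week intermediate cells also held 1328 CPM of fibroblast and endothelial markers, against 6.78 to 534 CPM in the basal GFPpos sums, and the part of this in the values was not tested. Of the 76 intermediate cells of the SMACre 3-week unit, 60 came from plate E of batch 3, which held no basal or luminal GFPpos cells, so gate and plate cannot be told apart there.

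Between intermediate and luminal GFPpos cells, edgeR passed 0 of 8 members and 0% of 13386 genes, and DESeq2 passed 3 of 8 and 4.56% of genes. An unadjusted p under 0.05 was reached by 3 of 8 (5.31% of genes), the same direction in every unit by 3 of 8 (20% of genes), and no overlap by 3 of 8 (7.47% of genes). In each count the 3 genes were Cxcl14, Icam1 and Cd14. Luminal cells had less Cxcl14 (log2 fold change -4.003, SE 0.56, adjusted p = 0.169) and more Cd14 (log2 fold change 5.60, SE 1.49, adjusted p = 0.599). This comparison and the previous ones use the same sums of luminal, intermediate and basal cells and are not independent of each other.

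**Figure D3:**
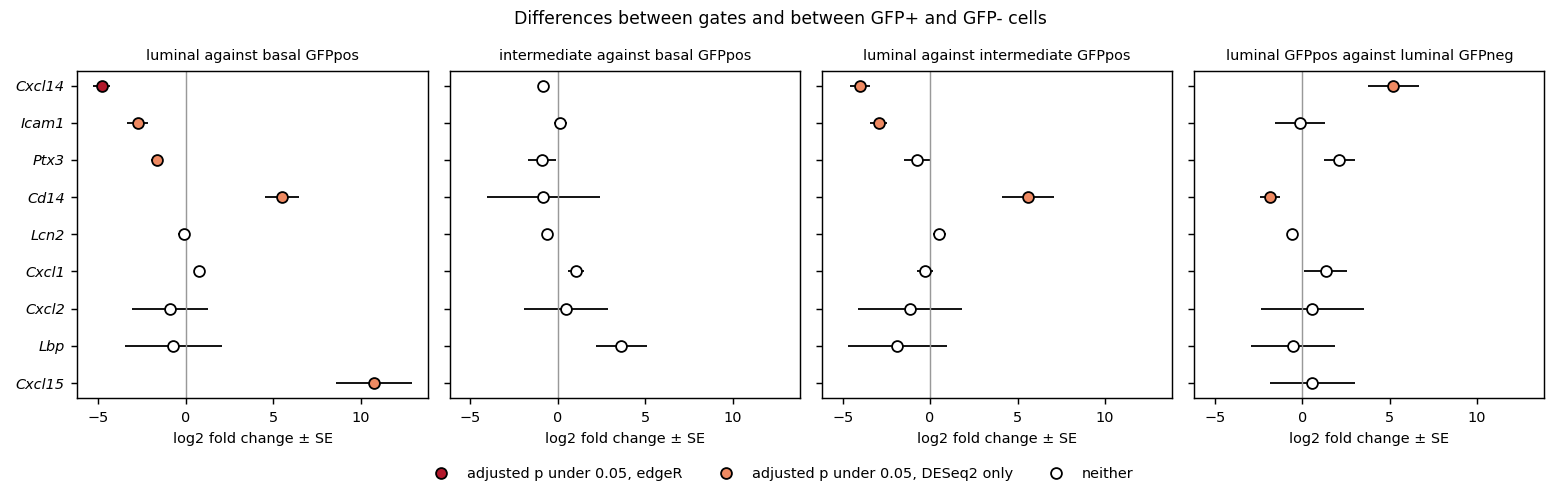
Log2 fold change with its SE for the tested members in the 4 comparisons (n = 4 units, 5 in the last panel). Cxcl14, at -4.81 in luminal against basal GFPpos cells, is the only value past the threshold with edgeR (red), while orange points passed with DESeq2 only and white points with neither.

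The comparison of luminal GFPpos with luminal GFPneg cells set cells with the active allele beside luminal neighbours without GFP. Cxcl14 was at 3.65, 0.284, 0.384, 0 and 0.587 CPM in GFPneg cells (K5Cre, then SMACre at 1, 3, 4 and 6 weeks) and higher in GFPpos cells of 5 of 5 units (edgeR log2 fold change 5.21 with SE 1.48, adjusted p = 0.999). Much of it came from the single cells given above, and 5.13% of GFPneg against 10.8% of GFPpos cells had a read. Summed basal markers were 92.98, 460, 134.8, 1346 and 34.3 CPM in the GFPpos sums and 783, 20.7, 92.4, 92.9 and 24.1 CPM in the GFPneg sums, and their part in the Cxcl14 values was not tested. Summed luminal hormone receptor-positive markers were 4297, 2039, 1657, 127.7 and 3632 CPM in the GFPneg sums. In the GFPpos sums they were 1000, 2038, 265.4, 388 and 140.9 CPM. The 1-week and 6-week GFPneg sums belong to batch 1, annotated as estrogen receptor-negative. The part of hormone receptor-positive cells in the differences of this comparison was not tested.

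Cd14 was lower in GFPpos than in GFPneg luminal cells in the 4 SMACre units and not in K5Cre. The GFPneg levels were 490 CPM in K5Cre and 1165, 214.6, 3055 and 857 CPM in SMACre at 1, 3, 4 and 6 weeks (1156 ± 1121 CPM, SD, n = 5), and the GFPpos levels averaged 315 ± 217.8 CPM (SD, n = 5). The log2 fold change of -1.84 (SE 0.55) did not pass with edgeR (adjusted p = 0.999) and did with DESeq2 (adjusted p = 0.0134). The share of cells with a read was 65.8% in GFPpos and 64.1% in GFPneg cells, and the median level per cell 127.8 and 131.9 CPM. In the repeat run of the 6-week plate the order was the other way, with 738.1 CPM in 67 GFPpos and 626.8 CPM in 12 GFPneg cells. A single GFPneg cell gave 88.3% of the reads at 1 week and another 65.6% at 4 weeks.

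Ptx3 was higher in GFPpos luminal cells of 5 of 5 units, at 160 ± 98.2 against 56.2 ± 87.2 CPM (SD, n = 5; log2 fold change 2.12, SE 0.91, adjusted p = 0.999). The ranges overlapped, with 210.9 CPM in the 4-week GFPneg sum, of which 79.3% came from 1 cell. Lcn2 was lower in 4 of 5 units (edgeR log2 fold change -0.57 with SE 0.28, adjusted p = 0.999). With edgeR 0 of 9 members passed in this comparison and 0% of 11599 genes did, with DESeq2 2 of 9 members (Cxcl14 and Cd14) and 2.05% of genes. An unadjusted p under 0.05 was reached by 3 of 9 (4.45% of genes), the same direction in 5 of 5 units by 2 of 9 (8.01% of genes), and groups without overlap by 0 of 9 (1.22% of genes).

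The SMACre luminal GFPpos cells were followed over the chase, with 1 unit per time and no test. No plate holds 2 times, so time and plate cannot be told apart, and only the 1-week and 6-week units lie wholly in the same batch. Cd14 was at 65.9, 102.7, 445 and 408 CPM at 1, 3, 4 and 6 weeks, and was detected in 37.5%, 38.5%, 68.6% and 81.1% of cells. Lcn2 was at 497, 1191, 1410 and 1945 CPM. Both were lowest at 1 week, in a sum of 8 cells of which 1 had 33.8% of its reads on salivary gland markers. Cxcl14 was at 12.96, 66.7, 72.4 and 1.57 CPM, lowest at 6 weeks, where 16 reads were counted over 37 cells. In basal GFPpos cells Cxcl14 was at 1059, 1289 and 1571 CPM at 1, 3 and 4 weeks.

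**Figure D4:**
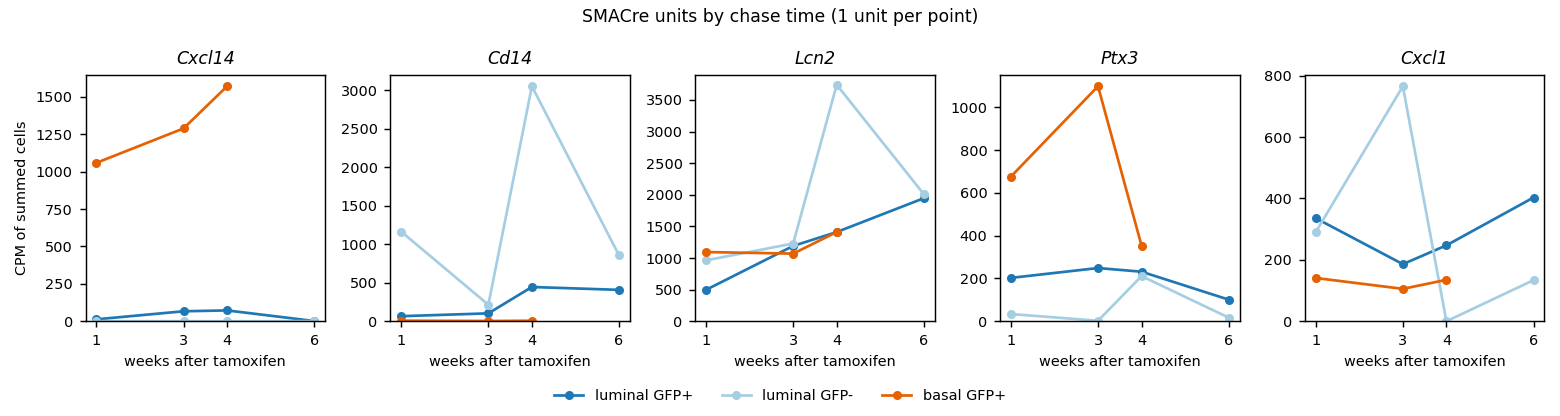
CPM (linear axis from 0) of 5 genes in SMACre units against weeks after tamoxifen, for luminal GFPpos, luminal GFPneg and basal GFPpos cells, 1 unit per point. Luminal GFPpos Lcn2 goes from 497 to 1945 CPM, Cd14 is at 65.9 and 102.7 CPM early and 445 and 408 CPM late, and luminal GFPneg Cd14 lies between 214.6 and 3055 CPM.

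In K5Cre basal cells GFPpos and GFPneg values could be set side by side in 1 unit without a test. In K5Cre Cxcl14 was at 478 against 608 CPM, Lcn2 at 751 against 616 CPM and Icam1 at 130 against 363 CPM. Ptx3 was at 58.3 against 262.8 CPM and Cxcl1 at 172.6 against 250.6 CPM. The Ptx3 value of GFPneg cells came to 88.99% from 1 of 11 cells, and 86.6% of the GFPpos Lcn2 reads came from 1 cell as well. Single GFPpos cells gave 65.8% of the Cxcl1, 53.9% of the Ptx3 and 50.6% of the Cxcl14 reads. In SMACre at 3 weeks Cxcl14 was at 1289 against 1013 CPM, Lcn2 at 1069 against 207.1 CPM and Icam1 at 458 against 397 CPM. Ptx3 was at 1098 against 84.7 CPM there and Cxcl1 at 105.5 against 113.4 CPM. The 6 GFPneg cells came from plate E and the 23 GFPpos cells from plates 2 and 3. GFP and plate cannot be told apart there.

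Plates of the same Cre line and batch differed in these genes. In intermediate GFPpos cells of batch 3, all annotated as 3 weeks, Cxcl1 was at 461 CPM on the SMACre plate E (60 cells) and at 333 and 67.98 CPM on the K5Cre plates G (63 cells) and L (61 cells). Cxcl14 was at 336, 510.7 and 184.4 CPM on these plates, Icam1 at 210.6, 297.6 and 65.97 CPM, Ptx3 at 125.5, 287.3 and 20.8 CPM, and Cxcl2 at 94.6, 134.9 and 28.05 CPM. The SMACre plate lay between the 2 K5Cre plates in each of these but Cxcl1.

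From plate L to plate G, within 1 Cre line and batch, Ptx3 was 13.8-fold, Cxcl1 4.89-fold, Cxcl2 4.81-fold, Icam1 4.51-fold, Cd14 4.09-fold and Cxcl14 2.77-fold higher, while Lcn2 (1.36-fold) and Lbp (1.04-fold) were near the median of all 8422 genes at 10 CPM or more (1.06-fold). Of those genes 11.8% were more than 2-fold higher on plate G. Detection showed the same order for Cxcl1, with 61.9% of cells on plate G and 24.6% on plate L, and for Icam1, with 60.3% and 21.3%. Gene lists differed as well, with 2181 against 1185 CPM for NF-kB pathway genes, 818 against 257.3 CPM for other chemokines and 2146 against 635 CPM for other secreted defence proteins. On plate G 94.4% of the Cd14 reads came from 1 cell. The immediate early genes were at 6376 against 7011 CPM, and the part of cell handling in the plate differences was not tested. The median depth was 1355980 against 1612300 reads per cell. By its name plate L may differ in chase, and plate and chase cannot be told apart.

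**Figure D5:**
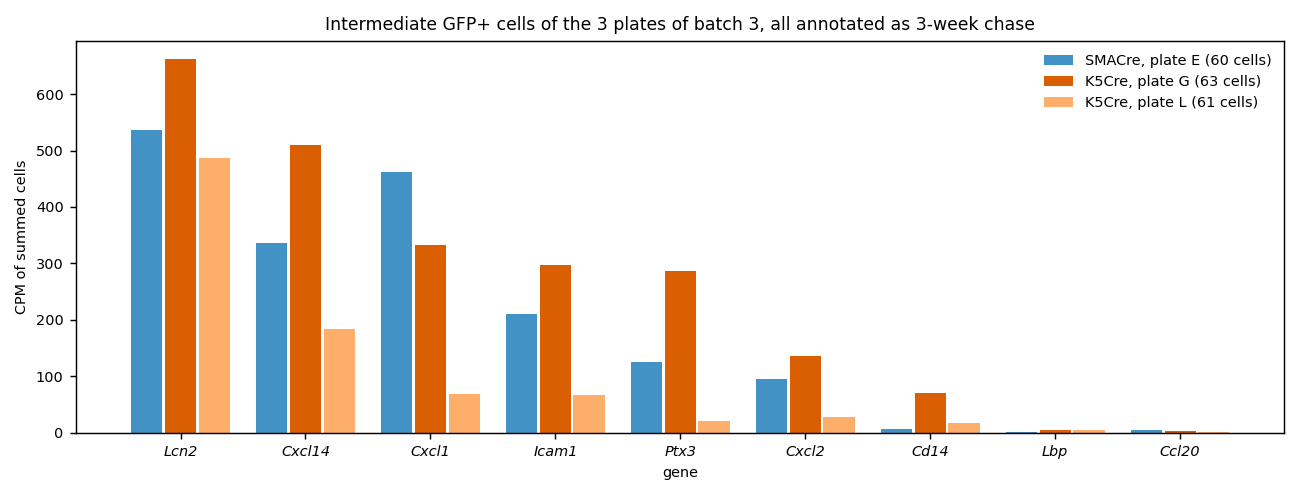
CPM (linear axis from 0) of 9 genes in intermediate GFPpos cells on the 3 plates of batch 3. The K5Cre plates G and L stand apart in Ptx3 (287.3 and 20.8 CPM), Cxcl1 (333 and 67.98 CPM) and Icam1 (297.6 and 65.97 CPM), and are alike in Lcn2 (662 and 486 CPM).

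The luminal GFPneg cells of those plates differed too, on 6 cells each. Plate G had 16.3 CPM of Cd14, 76.9 CPM of Lcn2 and 180.6 CPM of Cxcl15, and plate L had 851, 2530 and 27.001 CPM. Summed luminal hormone receptor-positive markers were 7633 CPM on plate G and 1753 CPM on plate L. The K5Cre GFPneg value sums both sets.

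Other genes of these pathways were read in lists. Among 24 other chemokines 7 were tested in luminal against basal GFPpos cells and 0 passed with edgeR. Cxcl12, the ligand of Cxcr4, was at 563 ± 305 CPM in basal and 26.1 ± 21.1 CPM in luminal cells (log2 fold change -4.79, SE 1.32, adjusted p = 0.170), lower in 4 of 4 units. Among 18 chemokine receptors 4 were tested and 0 passed. The scavenging receptor Ackr4 was at 20.5 ± 14.5 CPM in basal and 0 CPM in luminal cells, and Ackr3, which scavenges Cxcl12, at 192.1 ± 106.5 and 30.9 ± 34.7 CPM.

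Of 18 genes of bacterial sensing, 13 were tested and 0 passed in luminal against basal GFPpos cells. Their median log2 fold change was 1.88, beside -0.03 for all genes. The direction was the same in every unit for 4 of 13, against 24.5% of all genes. Summed over the 18 genes, luminal cells had 215.3 and basal cells 418.1 CPM at 1 week. The K5Cre unit had 337.6 against 229.6 CPM. SMACre at 3 and 4 weeks had 425.9 against 299.6 and 445 against 346.1 CPM. Tlr4, the receptor that Cd14 serves, was at 27.5 ± 14.5 CPM in luminal and 4.88 ± 6.37 CPM in basal cells, higher in 4 of 4 units (edgeR log2 fold change 4.64 with SE 1.98, adjusted p = 0.383). Tlr3, a sensor of double-stranded RNA, was at 29.6 ± 13.2 and 2.17 ± 3.08 CPM (log2 fold change 4.94, SE 1.24, adjusted p = 0.139).

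All 20 genes of the NF-kB pathway and its feedback were tested, and 1 passed, against 1.13% of all genes. Tnf, an inflammatory cytokine, rose in 4 of 4 units, from 0.0578 ± 0.0917 CPM, which is at most 2 reads per basal sum, to 29.3 ± 25.96 CPM (adjusted p = 0.0440). The median of the list was 0.28, beside -0.03 for all genes. Of 10 immediate early genes 0 passed, and their median was -0.21. Of 18 inflammatory cytokines and their receptors 11 were tested and 0 passed.

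Among 24 further secreted defence proteins 10 were tested, 1 rose and 1 fell, against 0.494% and 0.641% of all genes. Ltf, lactoferrin, which binds iron in milk, rose (log2 fold change 8.81, SE 1.38, adjusted p = 0.0384), from 0.583 ± 0.739 to 294.8 ± 440 CPM, and 1 cell gave 99.8% of the reads of the 1-week luminal sum. Chil1, a chitinase-like protein, fell from 1817 ± 1229 to 84.7 ± 110 CPM (log2 fold change -5.07, SE 0.38, adjusted p = 0.00538). Of 10 adhesion genes 6 were tested, and 1 rose and 1 fell, beside the same shares of all genes. Ceacam1 rose (log2 fold change 4.05, SE 0.55, adjusted p = 0.0247) and Vcam1, like Icam1 a ligand of leukocyte integrins, fell from 38.9 ± 25.6 to 0.126 ± 0.0969 CPM, at most 2 reads per luminal sum (adjusted p = 0.0135).

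In the other comparisons edgeR called 0 genes of these lists and 0% of all genes. For luminal against intermediate GFPpos cells DESeq2 called 5 of 10 secreted defence proteins higher and 2 lower, beside 4.56% of all genes. Of 13 inflammatory cytokine genes 1 was higher and 2 lower, and of 20 NF-kB genes 1 higher. Other chemokines, bacterial sensing and adhesion had 1 gene lower each. In intermediate against basal cells 1 cytokine gene was higher. In luminal GFPpos against GFPneg cells 1 secreted defence protein and 1 immediate early gene were lower. In basal and intermediate GFPpos cells Ceacam1 was at 26.9 ± 13.2 and 93.4 ± 21.6 CPM and Cxcl12 at 563 ± 305 and 184.6 ± 55.1 CPM, each in the same direction in 4 of 4 units. Wfdc18, a protease inhibitor of milk, was at 23.5 ± 22.7 CPM in intermediate and 1081 ± 268.6 CPM in luminal cells. Il6 was at 12.05 ± 14.9 and 0.136 ± 0.272 CPM, and Csf1, a growth factor of macrophages, at 98.4 ± 97.4 and 9.38 ± 10.7 CPM. In luminal GFPpos against GFPneg cells the complement gene C3 was lower in 5 of 5 units (edgeR log2 fold change -4.12 with SE 1.19, adjusted p = 0.999), and Cxcl16 higher in 5 of 5 (edgeR log2 fold change 1.01 with SE 0.39, adjusted p = 0.999).

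The genes whose levels ran most like each member over the 21 sums were named as a description, by Pearson's r of log2(CPM + 1) among 9176 genes with a mean of 10 CPM or more. The sums share mice, plates and depth. Cxcl14 ran with Fstl1 (r = 0.96), Snai2 (0.95) and Dkk3 (0.95), of which Snai2 encodes a transcription factor of basal cells. Cd14 ran with St14 (0.91), Tnfaip2 (0.91) and Rasef (0.91). Cxcl15 ran with Sytl2 (0.90), Ttc6 (0.89) and Slc5a5 (0.87), the sodium iodide symporter. Lcn2 ran with Syne4 (0.80), Muc1 (0.79) and Dalrd3 (0.79), Icam1 with Nfil3 (0.88), Tgfbr1 (0.83) and Plekha3 (0.81), and Ptx3 with Pros1 (0.83), Hs3st1 (0.82) and Rai2 (0.77). Cxcl1 ran with Slc30a7 (0.87), Sacm1l (0.86) and Vwa8 (0.83). For Cxcl2, Lbp and Ccl20 the highest values were 0.73 (Rab32), 0.77 (Fbxo7) and 0.60 (Cst6).

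Among the members themselves Cd14 and Cxcl14 had r = -0.88, Cd14 and Icam1 -0.71, Cd14 and Lcn2 0.60 and Cxcl1 and Icam1 0.64 over the same sums.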

How the data were processed

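The 744 cells of 8 plates were sequenced by Smart-seq2, and 96 of them in a repeat run as well, batches 1 and 2 as single-end and batch 3 as paired-end reads of 50 bases. The authors deposited counts per gene without normalization. Per the submitters' processing notes these came from Trim Galore 0.6.5, STAR 2.7.7a and HTSeq 0.13.5 on GRCm38 (mm10), with R 4.3.0 and Seurat 4.3.0.1 named for later steps. Spike-ins and HTSeq summary rows were left out. Reads assigned to no gene made up 25.5%, 27.7% and 29.6% of all entries in batches 1 to 3.

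The repeat run of the 6-week plate was left out of all comparisons. The thresholds of the study's methods were applied in turn to read counts, which dropped cells at 10% or more mitochondrial reads, with no more than 1400 genes or 100000 reads, with fewer than 2 reads of Epcam, or with more than 1 of the salivary gland gene Dcpp1. Cells were index-sorted singly, and doublets were not called. Group, gate and chase come from the labels and the deposited plate annotation. Unit sums of at least 3 cells were tested with edgeR 4.0.16 in R 4.3.3 (quasi-likelihood, filterByExpr, TMM, unit as block, Benjamini-Hochberg over all genes tested, called under 0.05), and with DESeq2 1.42.0 as an alternative. The test was tried on counts drawn with known changes. Units differ in chase and batch, so p-values ask whether a difference recurs over them. Length-scaled levels are reads per kilobase of merged exons, scaled to the same total in each class as CPM. Detection used exact Clopper-Pearson intervals at 95%, in Python 3.11.15 with scipy 1.17.1.

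Members and lists were chosen with earlier results of these data known. All members are named. From each list the genes past the threshold, or otherwise up to 3 with the largest change in 1 direction in every unit, could be named. The alternatives are given with the limits at the end, and those for plates L, E and 2, for 1 cell and for the repeat run were chosen after seeing the data.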

Additional observations from a re-analysis of the deposited data

Results flagged for a closer look

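Of 36 sets of 4 or 5 units tested for a unit far from the others, 9 held one. Chance marks about 1 in 20 sets of normally distributed values. Several of these sets hold sums at 0 or led by 1 cell, so the 9 of 36 cannot be read against that rate. In intermediate GFPpos cells the SMACre 4-week unit stood apart for Lcn2 (1030 CPM, next 570) and Ptx3 (504.6 CPM, next 161.8), each with at most 25.4% of the reads from 1 of its 19 cells. In the same gate the 1-week unit stood apart for Lbp (216.8 CPM, next 4.34, all reads from 1 cell) and the SMACre 3-week unit for Cxcl15 (0.06403 CPM, the others at 0). In luminal GFPneg cells the K5Cre unit stood apart for Cxcl14 (3.648 CPM, 98.3% from 1 cell), the SMACre 1-week unit for Cxcl2 (109.9 CPM, 57.1% from 1 cell), the 3-week unit for Icam1 (810 CPM, 83.4% from 1 cell) and the 4-week unit for Ptx3 (210.9 CPM, 79.3% from 1 cell). In luminal GFPpos cells the K5Cre unit stood apart for Cxcl2 (33.79 CPM, 90.3% from 1 cell).

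In 3 cases the K5Cre unit went one way and every SMACre unit the other, and the difference between the lines was not tested. In luminal GFPpos against GFPneg cells Cd14 differed by 0.18 on the log2(CPM + 1) scale in K5Cre and by -4.12 to -1.06 in the 4 SMACre units, and Lcn2 by 0.05 in K5Cre and by -1.41 to -0.05 in SMACre. In intermediate against basal GFPpos cells Lbp differed by -0.12 in K5Cre and by 1.00 to 5.51 in the 3 SMACre units.

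The repeat run of the 6-week plate, which entered no comparison, had 67 luminal GFPpos and 12 luminal GFPneg cells past the filters. GFPpos cells were above GFPneg cells there for Cxcl1 (456.7 against 138.5 CPM), Cxcl2 (9.731 against 0 CPM), Cd14 (738.1 against 627 CPM), Lbp (20.79 against 0 CPM) and Ptx3 (102.1 against 9.53 CPM). For Cd14 the first run of the plate had 408 CPM in 37 GFPpos and 857 CPM in 7 GFPneg cells, the opposite order. The first run had 51 of 96 wells with more than 1 Dcpp1 read and the repeat 14, so the filter kept more wells of the repeat. Of 96 wells 94 matched their own well best between the runs (median r 0.967, against 0.552 over all pairs of wells).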

How the results depend on the processing

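Of 588 alternative log2 fold changes of members, 500 were counted as the same, 57 reversed, 28 passed the threshold in addition, 2 lost it and 1 moved. For the refitted tests, the same means that direction and side of the threshold were kept. The mean of the cells' CPM in place of the sum was not tested. It counted as the same when within the SD of the units, whatever its sign, for members not called. Cd14 in intermediate against basal and Lbp in luminal against basal cells changed sign in this way. In luminal against basal GFPpos cells the count of members called was 5 with DESeq2, 5 without a filter on low counts, 2 without the replicate block, 4 on thinned cells, 3 when only cells over 100 Dcpp1 reads were removed, 0 with plates as units, 0 without plate L, and 1 to 2 when each unit was left out. Of all genes tested 1.13% were called there, against 12.7% with DESeq2, 3.57% without a filter, 1.77% without the replicate block, 3.92% on thinned cells, 1.75% with over 100 Dcpp1 reads removed, 0.562% with plates as units, 0.613% without plate L and 0.247% to 0.687% without a unit. In luminal against intermediate cells 3 members were called with DESeq2, 3 without a filter, 1 without the replicate block and 1 with neither the Epcam nor the Dcpp1 filter. In luminal GFPpos against GFPneg cells 2 were called with DESeq2 and 3 without a filter. The replicate numbers carry only accession order, and the block is the unit. The cause of these shifts was not tested. For the further lists DESeq2 was the only alternative counted. In luminal against basal GFPpos cells it called 6 of 10 secreted defence proteins higher and 2 lower. Of 11 inflammatory cytokine genes it called 3 higher and 1 lower. Higher and lower were 4 and 1 of 20 NF-kB pathway genes, 2 and 1 of 13 bacterial sensing genes, and 1 and 1 of 7 other chemokines. They were 1 and 1 of 6 adhesion genes, 0 and 2 of 4 chemokine receptors and 0 and 1 of 10 immediate early genes.

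Reversed log2 fold changes, changes of sign in the mean of the cells' CPM aside, were as follows. In luminal against basal cells, Lbp was 1.12 without the replicate block, 3.2 with neither cell filter and 2.89 with over 100 Dcpp1 reads removed, Cxcl2 was 0.03 and 0.2 under the last 2 settings, and Lcn2 was 0.19 with plates as units. In intermediate against basal cells, Cd14 was 1.64 without the replicate block, 2.94 with plates, 0.5 thinned, 2.45 with neither filter, 0.04 without plate E and 0.27 without plate 2, and Cxcl2 was -2.28 with plates and -4.27 without plate E. In luminal against intermediate cells, Cxcl2 was 1.26 with plates and 4.27 without plate E, Lbp 0.42 with neither filter and 0.22 with over 100 Dcpp1 reads removed, and Cxcl1 0.09 under the latter and 0.07 without plate E. In luminal GFPpos against GFPneg cells, Cxcl1, Cxcl2 and Cxcl15 were -0.04, -1.47 and -1.36 without the replicate block, Cxcl2, Cxcl15 and Lbp -0.75, -2.59 and 0.6 with plates, Cxcl15, Lbp and Icam1 -0.36, 1.64 and 0.23 with neither filter, Cxcl15 and Lbp -0.16 and 0.87 with over 100 Dcpp1 reads removed, Lbp and Icam1 1.42 and 0.73 without plate L, Cxcl15 -1.04 without plate 2, and Icam1 0.12 thinned and 0.04 with the repeat run.

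Leaving out each unit gave ranges that cross 0 for Cxcl2 (-2.33 to 0.55), Lcn2 (-0.44 to 0.24) and Lbp (-3.01 to 1.14) in luminal against basal cells. They crossed 0 for Cxcl2 (-2.27 to 2.63), Cd14 (-3.49 to 1.47) and Icam1 (-0.05 to 0.39) in intermediate against basal cells, and for Cxcl2 (-3.56 to 2.44), Lbp (-5.98 to 0.04) and Cxcl1 (-0.53 to 0.14) in luminal against intermediate cells. In luminal GFPpos against GFPneg cells they did for Cxcl15 (-1.16 to 2.37), Lbp (-2 to 0.95), Icam1 (-1.17 to 0.95) and Cxcl2 (-1.72 to 2.68). Small sums of 4 to 8 cells limit the precision of their units.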

Other observations

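The plates of 1 line also differed in the other gates, on 5 or 6 cells each. In basal GFPpos cells the further secreted defence proteins summed to 3316 CPM on plate G and 383 CPM on plate L, and in luminal GFPpos cells to 2667 and 710 CPM. The other chemokines summed to 1440 CPM in luminal GFPpos cells of plate G and 318 CPM on plate L. In luminal GFPneg cells the order was the other way, with 1297 CPM of secreted defence proteins on plate G and 4230 CPM on plate L.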
